A study of Mus musculus with 15 samples.

Results

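H3K4Me1 was compared between 0 and 48 hr post-induction (hpi) in C10 pre-B cells by chromatin immunoprecipitation and sequencing (ChIP-seq). Windows of 3 kb were placed on the 1 kb bins richest in H3K4Me1 at either time, no bin being used more than once, and were sorted by their tags in these 2 libraries alone. Of 107089 windows, 14616 (13.6%) were gained, with at least 30 tags at 48 hpi and at least 4-fold more than at 0 hpi, and 1849 (1.73%) were lost by the reverse rule. Another 41667 windows were kept, with at least 30 tags at both times and a change under 2-fold, and 48957 fell between these classes. Acetylation (H3K27Ac) took no part in the choice.

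C10 cells are a derivative of the HAFTL mouse pre-B line that carries C/EBPαER-GFP, a C/EBPα protein fused to the estrogen receptor, and they become macrophage-like once it enters the nucleus. Induced cells received 100 nM β-estradiol with 10 nM IL-3 and CSF-1, and 0.1% ethanol was the solvent control. The labels do not say whether the 0 hpi cells received the solvent. Each mark and time had 1 library from this single line, so there is no replicate spread to judge a change by, no test was run, and every interval given covers counting error only. Intervals of shares take windows as independent, which neighbouring windows are not, and may be too narrow. In such bulk libraries, a mark present in fewer cells and less of it per cell cannot be told apart.

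H3K4Me1 is the monomethylation of lysine on the tail of histone H3. It marks enhancers, whether poised or active, and it flanks active starts, where trimethylation of the same residue takes the centre. H3K27Ac marks active enhancers and promoters, and H3K27Me3, placed by Polycomb complexes, marks repressed chromatin. In blood cells the enhancers of a lineage acquire H3K4Me1 as PU.1, C/EBP proteins and other lineage factors bind, and macrophage and B cell enhancer sets differ widely.

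After positions were reduced to 1 tag each, the H3K4Me1 libraries held 14.19 M tags at 0 hpi and 10.91 M at 48 hpi, and all 5 times were thinned to 10.91 M. A bin was enriched at 13 tags or more for H3K4Me1, against a mean of 4.49 tags in a mappable bin. Enriched bins held 56.9% of the tags at 0 hpi and 70.1% at 48 hpi, so the 0 hpi library had the higher background, with 1.86 against 1.27 tags in a bin outside enriched regions. Making the background equal in place of the total multiplied the 48 hpi values by 1.47 and moved the median log2 change over all windows from 0.17 to 0.74. It turned the count to 23426 gained and 500 lost windows. Making tags in bins enriched at both times equal gave 14828 gained and 1701 lost. Both raise the 48 hpi values and so can only add gained and remove lost windows. The size of the lost class in particular depended on the scaling. The part of the unequal background in the changes was not tested.

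Stretches of 300 bases are given for the 3 gained and the 3 lost windows with the largest difference in tags, since these carry the clearest change of the mark. They were read from the plus strand of mm9. The gained stretches lie at chr7:108142541-108142840 (P2ry2), chr7:149582368-149582667 (Ctsd) and chr2:167582944-167583243 (Cebpb). The lost stretches lie at chr14:32127883-32128182 (Dnahc1), chr11:82067323-82067622 (Ccl1) and chr12:118799642-118799941 (Rapgef5). Capitals mark matches on either strand to 9 motifs, and each stretch is the one in its window with the most matches, so that the matches in it are no finding.
gained window nearest P2ry2: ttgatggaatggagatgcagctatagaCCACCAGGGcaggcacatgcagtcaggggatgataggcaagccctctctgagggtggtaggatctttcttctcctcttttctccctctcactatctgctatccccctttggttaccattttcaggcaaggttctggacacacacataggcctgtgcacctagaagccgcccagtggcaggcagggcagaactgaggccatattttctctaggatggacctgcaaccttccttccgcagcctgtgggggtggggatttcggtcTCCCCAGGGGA
gained window nearest Ctsd: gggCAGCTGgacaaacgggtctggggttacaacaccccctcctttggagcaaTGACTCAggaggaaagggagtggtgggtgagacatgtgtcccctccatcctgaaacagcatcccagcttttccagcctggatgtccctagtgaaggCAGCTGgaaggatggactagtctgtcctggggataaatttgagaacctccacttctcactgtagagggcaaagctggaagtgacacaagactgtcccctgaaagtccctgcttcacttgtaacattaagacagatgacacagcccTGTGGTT
gained window nearest Cebpb: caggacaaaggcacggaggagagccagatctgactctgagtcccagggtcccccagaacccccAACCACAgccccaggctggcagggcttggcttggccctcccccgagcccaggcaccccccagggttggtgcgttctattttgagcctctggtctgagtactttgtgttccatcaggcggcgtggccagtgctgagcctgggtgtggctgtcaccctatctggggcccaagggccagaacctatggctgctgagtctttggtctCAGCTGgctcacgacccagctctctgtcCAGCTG
lost window nearest Dnahc1: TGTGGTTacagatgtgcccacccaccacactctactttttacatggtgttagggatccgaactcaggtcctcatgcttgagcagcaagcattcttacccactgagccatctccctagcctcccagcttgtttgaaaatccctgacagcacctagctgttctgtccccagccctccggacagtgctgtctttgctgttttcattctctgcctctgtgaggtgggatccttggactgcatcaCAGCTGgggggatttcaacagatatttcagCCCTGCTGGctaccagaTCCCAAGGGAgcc
lost window nearest Ccl1: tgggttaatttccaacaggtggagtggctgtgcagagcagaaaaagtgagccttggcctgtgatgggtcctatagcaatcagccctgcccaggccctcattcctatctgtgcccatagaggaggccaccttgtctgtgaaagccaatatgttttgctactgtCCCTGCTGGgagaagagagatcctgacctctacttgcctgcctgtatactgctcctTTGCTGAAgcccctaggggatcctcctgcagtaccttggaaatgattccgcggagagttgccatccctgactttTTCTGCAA
lost window nearest Rapgef5: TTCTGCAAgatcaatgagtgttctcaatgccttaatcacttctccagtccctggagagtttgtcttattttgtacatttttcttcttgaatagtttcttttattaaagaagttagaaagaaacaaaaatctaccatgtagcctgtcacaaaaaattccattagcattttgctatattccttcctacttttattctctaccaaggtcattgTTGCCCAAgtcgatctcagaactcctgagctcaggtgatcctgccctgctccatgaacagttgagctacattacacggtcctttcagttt
The letters searched were TTGCNNAA for C/EBP, GAGGAAGT for PU.1, TCCCNNGGG for EBF1, GAANNGAAA for IRF proteins and CCANNAGGG for CTCF. The AP-1 motif was searched as TGANTCA. The RUNX motif was searched as TGTGGTT. E proteins were given the letters CAGCTG. The GATA motif was searched as AGATAAG. The Ctsd stretch holds 4 matches, an AP-1 match and a RUNX match among them. The Dnahc1 stretch holds 5, with an overlapping pair of EBF1 matches. The P2ry2 stretch holds 3, with such a pair of EBF1 matches as well. The Cebpb and Ccl1 stretches hold 3 each, and the Rapgef5 stretch holds 2.

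At the gained windows the median H3K4Me1 signal was 11 tags at 0 hpi (quartiles 7 and 18) and 87 tags at 48 hpi (quartiles 56 and 138). At the lost windows it was 65 tags at 0 hpi (quartiles 42 and 107) and 12 tags at 48 hpi (quartiles 7 and 20). These values chose the windows and describe them only. Over the genome mean of a 3 kb window, the gained windows stood at 0.817-fold at 0 hpi, below that mean, and at 6.46-fold at 48 hpi. The lost windows ended at 0.891-fold from 4.83-fold. That mean includes the enriched bins, and outside enriched regions a 1 kb bin held 1.86 tags at 0 hpi and 1.27 at 48 hpi. A level below the mean does not show that the mark was absent. Kept windows had medians of 76 and 74 tags. The 933 gained windows just inside the limit, at 4 to 4.2-fold, had medians of 17 and 71 tags, and the 818 just outside it, at 3.8 to 4-fold, had 19 and 76. The 301 lost windows just inside had medians of 69 and 16 tags, and the 309 just outside had 66 and 16. No gap in the values separated the classes from their neighbours.

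**Figure D1:**
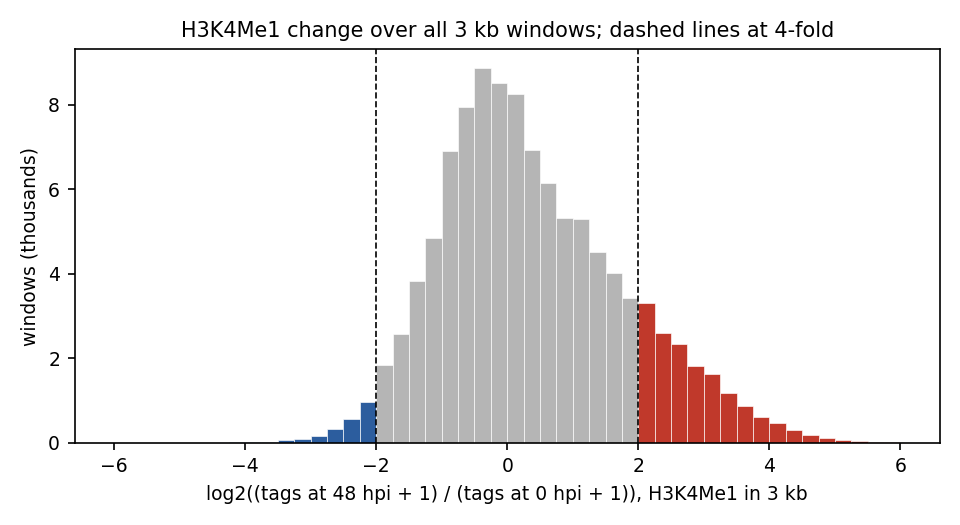
Distribution of the H3K4Me1 change over all 107089 windows, with the log2 ratio of tags in 3 kb at 48 hpi to 0 hpi (1 tag added to each) on the horizontal axis and the number of windows, in units of 1000, on the vertical axis. Coloured bars lie beyond the dashed lines at 4-fold, with the longer tail on the side of more tags at 48 hpi, and they include windows under 30 tags, which are not among the 14616 gained and 1849 lost windows.

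The libraries at 3, 12 and 24 hpi, which the choice did not use, traced the course between both ends. The gained windows had medians of 13 tags at 3 hpi, 33 at 12 hpi and 65 at 24 hpi. By 3 hpi 2.63% of the rise of the median was reached, by 12 hpi 28.9% and by 24 hpi 71.1%. The rule favours low counts at 0 hpi here, and its part in the rise from 0 to 3 hpi was not tested. On the log2 scale the median step was 1.22 from 3 to 12 hpi and 0.87 from 12 to 24 hpi, while in tags the median rose more from 12 to 24 hpi. From 3 to 12 hpi 88.3% of the gained windows had more tags, against 49.2% of all windows. A bin of the window was enriched in 27.4% of the gained windows at 3 hpi (exact binomial 95% interval 26.7 to 28.2%), in 63.7% at 12 hpi and in 89.0% at 24 hpi. At 0 hpi it was 14.4%. Over all windows these shares were 72.6, 69.8, 72.6 and 80.1% in the order of time, so the gained windows were below that share until 12 hpi and above it at 24 hpi.

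The lost windows had medians of 55 tags at 3 hpi, 27 at 12 hpi and 19 at 24 hpi. Their median had covered 18.9% of its fall by 3 hpi, 71.7% by 12 hpi and 86.8% by 24 hpi in tags. On the log2 scale their median step was −0.25 from 0 to 3 hpi and −0.96 from 3 to 12 hpi. That of the gained windows was 0.26 and 1.22. The larger share by 12 hpi at the lost windows was therefore one of tags and not of log2 change. The 0 hpi counts took part in the choice, which favours low ones for gained and high ones for lost windows. The part of this in the steps from 0 to 3 hpi, and in the shares reached by 3 hpi, was not tested. At 3 hpi 88.7% of the lost windows still held an enriched bin, at 24 hpi 43.1% and at 48 hpi 21.6%. Kept windows had medians of 86, 83 and 78 tags at 3, 12 and 24 hpi. Most gained windows were highest at 48 hpi (10851, or 74.2%), 19.8% were highest at 24 hpi and 5.89% at 12 hpi. In 315 gained windows (2.16%) an intermediate library was at least 1.5-fold above 48 hpi. Of the kept windows 14.35% were highest at 48 hpi, and 35.2% had such an intermediate library. The rule for gained windows favours a high at 48 hpi and forbids one at 0 hpi, so these shares describe the choice in part.

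**Figure D2:**
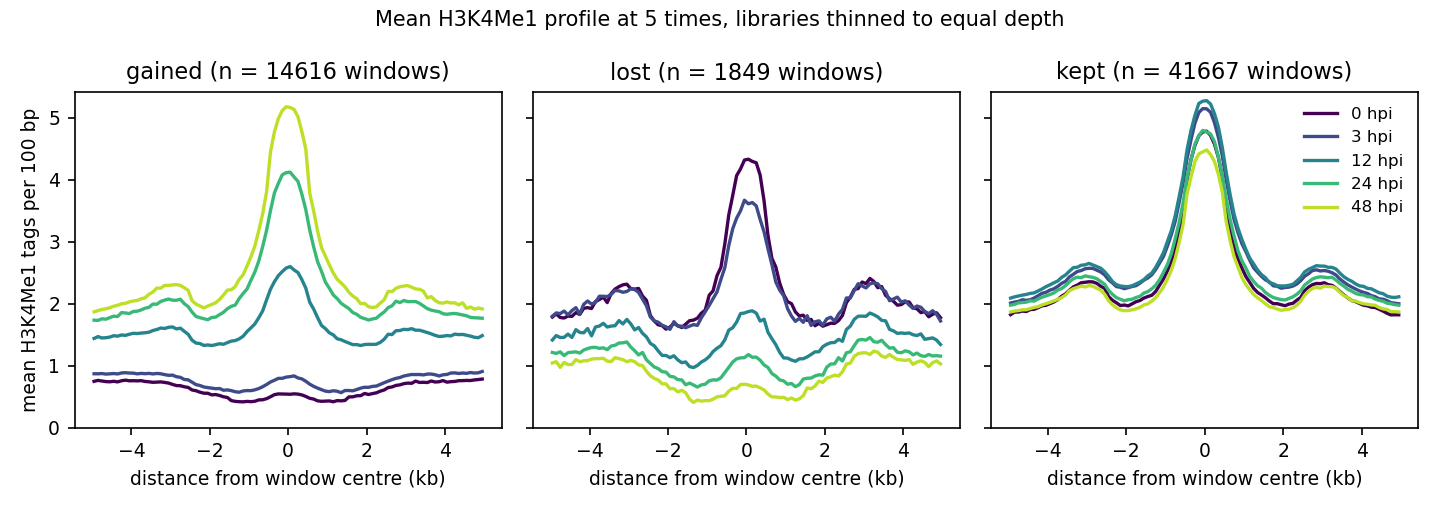
Mean H3K4Me1 tags in steps of 100 bp against the distance from the window centre in kb, for gained, lost and kept windows, with 1 line for each of 5 times from libraries of equal depth. At the centre of the gained windows the line at 12 hpi stands between those at 0 and 48 hpi, at the lost windows the 12 hpi line is already nearer to 48 hpi, and the kept windows change little. Window centres lie at least 3 kb apart by construction, and the shoulders stand at that distance. The background of the libraries was not made equal.

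Within 500 bp of the centre the gained windows averaged 5.35 tags per kb at 0 hpi, 24.5 at 12 hpi and 49.1 at 48 hpi. Toward the edge of the 5000 bp on either side the same windows averaged 7.63 tags per kb at 0 hpi and 19.2 at 48 hpi. The ground around the gained windows was therefore also richer in the mark at 48 hpi. Lost windows went from 40.4 to 6.56 tags per kb at the centre and from 18.1 to 10.4 tags per kb at the outer distance.

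H3K27Ac moved with H3K4Me1 at the windows chosen by H3K4Me1. The gained windows had a median of 9 H3K27Ac tags at 0 hpi (quartiles 6 and 15) and 69 at 48 hpi (quartiles 34 and 147), a median log2 change of 2.71. The lost windows had 37 tags at 0 hpi (quartiles 17 and 123) and 11 at 48 hpi (quartiles 6 and 23), a median log2 change of −1.58. The kept windows had 86 and 78 tags. A rise of H3K27Ac by 4-fold or more was seen in 10572 gained windows (72.3%) and in 16.9% of all windows. A fall of that size was seen in 720 lost windows (38.9%) and in 6.13% of all windows. Only 5 gained windows were 4-fold lower, and 18 lost windows were 4-fold higher. Across all 107089 windows, which share libraries and lie next to each other, the changes of both marks had a Pearson correlation of 0.777 and a Spearman correlation of 0.783. Scaling by the bins enriched at both times gave medians of 3.08 at gained and −1.25 at lost windows. The direction at the gained and at the lost windows held under all 3 scalings.

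**Figure D3:**
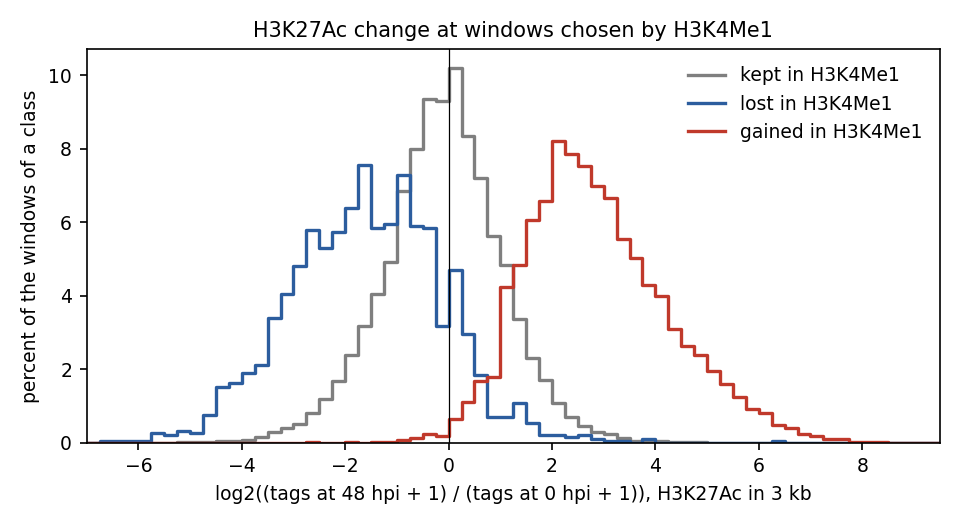
Distribution of the H3K27Ac change at windows gained, kept and lost in H3K4Me1. The horizontal axis is the log2 ratio of H3K27Ac tags at 48 to 0 hpi, each with 1 tag added, and the vertical axis is the percent of the windows of a class. The gained windows lie almost wholly to the right of 0, with a median of 2.71, and the lost windows mostly to the left, with a median of −1.58 and a part of the class near 0.

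An H3K27Ac-enriched bin lay in 11603 gained windows at 48 hpi (79.4%, exact binomial 95% interval 78.7 to 80.0%) and in 559 (3.83%) at 0 hpi. Of the kept windows 79.8% held one at 48 hpi and 76.7% at 0 hpi, and of all windows 61.0% and 44.2%. By position the gained and kept classes differed at 48 hpi. More than 2500 bp from a start 79.3% of the gained and 75.3% of the kept windows held one, and nearer to a start 81.3% and 92.4%. The other 3013 gained windows had H3K4Me1 without enriched H3K27Ac at 48 hpi. They were weaker in H3K4Me1, with a median of 49 tags at 48 hpi against 102 in the acetylated windows. At 12 hpi they stood at 18 against 40 tags, and at 24 hpi at 37 against 78. Their own H3K27Ac went from 6 to 20 tags, which is 1.07-fold over the genome mean. These windows thus had less of both marks, and the part of depth in the missing calls was not tested.

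At the lost windows 1044 (56.5%) held H3K27Ac at 0 hpi and 358 (19.4%) at 48 hpi, and 799 (43.2%) held it at neither time, where 31.9% of all windows held it at neither. The picture differed at gene starts. Of the 1651 lost windows more than 2500 bp from any protein-coding start, 69.8% had at least 2-fold less H3K27Ac at 48 hpi and 1.51% had at least 2-fold more. Of the 198 lost windows within 2500 bp of a start, 36.4% (29.7 to 43.5%) had at least 2-fold less and 20.2% (14.8 to 26.5%) had at least 2-fold more. Kept windows at starts had 15.3% and 8.57%, and all windows 17.7% and 34.9%. At the 198 lost windows near starts the medians were 166.5 tags at 0 hpi and 75 at 48 hpi. The median log2 change of H3K27Ac by window was −0.39 there and −1.66 at the distal lost windows. Making tags in bins enriched at both times equal multiplied the 48 hpi H3K27Ac values by 1.31. The windows near starts were not counted with that scaling, and the direction of their small median change may depend on it. Of the 198, 124 windows (62.6%) still held H3K27Ac at 48 hpi, against 14.2% of the distal lost windows. Among kept windows at starts 92.4% held it at 48 hpi. The start of Actb, which encodes cytoplasmic β-actin, was of this kind. Its H3K4Me1 tags were 123, 125, 50, 17 and 14 in the order of time, while its H3K27Ac tags were 237 and 389. The start of Arap1, a GTPase-activating protein for Arf proteins, had 370, 447, 319, 117 and 68 H3K4Me1 tags and 851 and 932 H3K27Ac tags. At these 2 starts the monomethyl mark was lost where acetylation was as high or higher at 48 hpi.

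H3K27Me3 was counted in the 5 kb around the windows. At the gained windows the median was 27 tags at 0 hpi and 27 at 48 hpi, 0.856-fold of the genome mean but above the genome median of 25 and 22 tags. It was enriched at 27.9% of them at 0 hpi and at 33.1% at 48 hpi, against 19.4% and 21.8% of all windows. The medians of the lost windows were 23 and 20 tags and those of the kept windows 18 and 17. The gained windows without H3K27Ac at 48 hpi stood apart, with 48 tags at 0 hpi and 64 at 48 hpi, and H3K27Me3 was enriched at 46.7% of them at 0 hpi and at 59.7% at 48 hpi. The gained windows with H3K27Ac had 23.0% and 26.2%. For comparison, 17.4% and 18.5% of all mappable bins were enriched by the same count over 5 kb. Enriched bins held 22.0% of the H3K27Me3 tags at 0 hpi and 30.3% at 48 hpi, so that the later library was the more contrasted, and its part in this difference was not tested.

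Gained windows lay away from starts. Of them 94.0% (93.6 to 94.4%) were more than 2500 bp from every start of a protein-coding transcript, against 89.3% (87.8 to 90.7%) of the lost, 73.9% of the kept and 83.5% of all windows. With the starts of all annotated genes, these shares were 87.9% for gained and 83.9% for lost windows, and the order gained, lost, kept held. The median distance to a start was 22577 bp for gained, 25681 bp for lost and 10497 bp for kept windows. Between 10 and 100 kb lay 61.1% of the gained and 54.6% of the lost windows, and beyond 100 kb 12.1% and 17.3%. By the window centre, 49.7% of the gained windows were intronic, 40.7% intergenic and 3.62% exonic. Of the lost windows 38.3% were intronic and 48.2% intergenic. Gained windows without H3K27Ac were intergenic in 54.1% of cases, those with it in 37.2%.

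Of the gained windows 7399 (50.6%) had H3K4Me1 of 0 hpi in them or within 5 kb of their edges, and 7217 had none. The share was 23.9% over mappable bins and 85.4% over all windows, most of which held the mark themselves at 0 hpi. These classes differed in time and in the other marks. The 2099 gained windows that already held an enriched bin at 0 hpi had medians of 32, 41, 113, 164 and 181 tags in the order of time, and 98.0% of them held H3K27Ac at 48 hpi. The 5300 windows with H3K4Me1 only beside them had 12, 15, 35, 68 and 90 tags, and 81.6% held H3K27Ac. The 7217 windows with none had 8, 9, 22, 48 and 69 tags, and 72.3% held H3K27Ac. Of these last windows 50.8% were enriched at 12 hpi, against 67.7% of those beside H3K4Me1. H3K27Me3 was enriched at 42.2% of them at 48 hpi and at 27% of those beside H3K4Me1. The order of the levels at 0 and 48 hpi follows from the rule, since a gained window with more tags at 0 hpi must end higher. The part of that level in the other differences was not tested.

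Gained windows came in runs. With gaps of at most 5 kb joined, the 14616 gained windows formed 9339 groups, 6690 windows stood alone (45.8%), and 333 groups held 5 windows or more. Of the lost windows 81.3% stood alone. The part of the larger number of gained windows in this difference was not tested. The longest run, of 24 gained windows over 94 kb at chr5:53743001-53837000, lay around Rbpj, which encodes the DNA-binding partner of Notch. It held 513 H3K4Me1 tags at 0 hpi and 4981 at 48 hpi, and 246 and 8586 H3K27Ac tags. A run of 16 windows over 59 kb at chr5:32444001-32503000 lay at Fosl2, an AP-1 subunit, and Plb1, with 291 and 2758 H3K4Me1 tags. The longest lost run, of 8 windows over 31 kb at chr4:114258001-114289000, was nearest to the predicted genes Gm12824 and Gm12830. It went from 1370 to 274 H3K4Me1 tags and from 1339 to 66 H3K27Ac tags.

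The sequence under the windows differed between the classes. An AP-1 match lay in the 1 kb anchor bin of 43.6% of the gained windows (exact binomial 95% interval 42.7 to 44.4%), of 28.9% of the kept, of 23.6% of the lost windows and of 26.8% of all mappable bins. AP-1 denotes dimers of Fos and Jun proteins, which act in macrophages and in many stimulated cells. A C/EBP match lay in 40.5% of the gained (39.7 to 41.3%), 35.3% of the kept, 32.6% of the lost and 38.7% of all bins. The C/EBP share of the gained windows was therefore near that of the genome, though above those of the kept and lost windows. A PU.1 match lay in 10.4% of the gained, 9.97% of the kept and 7.57% of the lost windows, against 5.78% of all bins.

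The lost windows were richest in EBF1 matches, the motif of a factor that B cells need. Such a match lay in 23.9% of the lost windows (22.0 to 25.9%), in 15.8% of the kept, in 10.2% of the gained and in 8.93% of all bins. An E protein match, of the class bound by E2A proteins in B cell development, lay in 48.4% of the lost, 42.1% of the kept and 39.6% of the gained windows, against 31.2% of all bins. With equal background 496 of the 1849 lost windows (26.8%) stayed lost, and motif shares were not counted for these alone. Lost windows were richer in G and C, with a median of 46.2% against 43.9% in gained and 45.6% in kept windows. With all windows split into 3 equal parts by GC content, the AP-1 share of gained against kept windows was 44.9% and 30.5% in the lowest, 44.0% and 30.3% in the middle and 40.7% and 26.5% in the highest. The EBF1 share of lost against kept windows was 11.7% and 8.62% in the lowest, 21.4% and 14.2% in the middle and 33.0% and 22.4% in the highest. The order held in each of the 3. RUNX, IRF and GATA matches differed by less than 4 percentage points between gained, kept and lost windows. Matches of different motifs can overlap, and each was counted on its own.

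**Figure D4:**
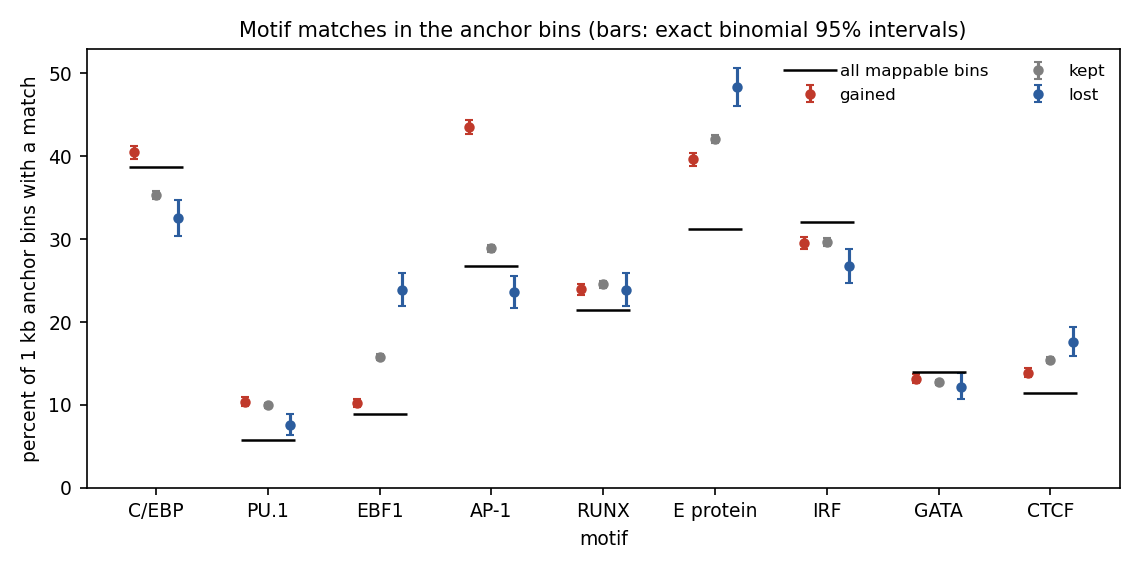
Percent of 1 kb anchor bins that hold a match to each of 9 motifs, for gained, kept and lost windows, with exact binomial 95% intervals, and a dash for all mappable bins. The gained windows stand above the other classes for AP-1 at 43.6%, and the lost windows for EBF1 at 23.9% and for E protein at 48.4%.

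Motif content was also set against H3K4Me1 within the gained windows. The 12 hpi library took no part in the choice of windows, while the 48 hpi library did. Values at 48 hpi therefore describe the chosen windows only. The 6365 gained windows with an AP-1 match had a median of 27 H3K4Me1 tags at 12 hpi and the 8251 without had 38, and a bin was enriched at that time in 56.5% and 69.3% of them. At 48 hpi the medians were 84 and 90 tags. Windows with and without a C/EBP match had the same median at 12 hpi, 33 tags, and 64.1% and 63.5% were enriched. Windows with an EBF1 match had 40 tags at 12 hpi and 101 at 48 hpi, and those without had 32 and 86.

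The gained windows with the largest difference lay near genes of diverse function. The first lay 18004 bp downstream of the start of P2ry2, a receptor for extracellular ATP and UTP, at chr7:108141001-108144000. It had 39, 35, 217, 400 and 537 H3K4Me1 tags at 0, 3, 12, 24 and 48 hpi, and 23 and 930 H3K27Ac tags at 0 and 48 hpi. The window 8.56 kb upstream of Ctsd, which encodes the lysosomal protease cathepsin D, had 21, 26, 353, 569 and 518 H3K4Me1 tags and 18 and 990 H3K27Ac tags. Both had changed little by 3 hpi and had at least 4-fold more than at 0 hpi by 12 hpi.

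Another pair lay 68.1 and 75.1 kb downstream of the start of Cebpb, which encodes C/EBPβ, a relative of the induced factor. The nearer, at chr2:167581001-167584000, had 67, 136, 680, 622 and 552 H3K4Me1 tags, the highest value being at 12 hpi. The farther had 31, 80, 382, 413 and 465. Their H3K27Ac went from 24 to 602 and from 16 to 504 tags. Both had at least 2-fold more than at 0 hpi by 3 hpi. A window in an intron near Por, the reductase that feeds cytochromes P450, had the steepest early rise of the 10, with 25, 111, 284, 385 and 415 tags.

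The window 14.8 kb downstream of Xpo6, an exportin for actin, was late, with 17, 15, 62, 299 and 426 H3K4Me1 tags at the 5 times. The window at the start of Slc39a14, a zinc and iron importer, was late as well, with 27, 20, 105, 294 and 436. H3K27Ac there went from 14 to 441 and from 12 to 324 tags. Intronic windows nearest Cabin1, an inhibitor of calcineurin, and Cdc42bpg, a kinase downstream of Cdc42, went from 43 to 444 and from 24 to 418 H3K4Me1 tags. The window in the intron of Rgl1, an exchange factor for Ral proteins, went from 87 to 498. Folds of the 10 windows ranged from 5.67 to 23.7, and both other scalings can only raise them.

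The lost windows with the largest difference started from more than 300 tags. The first, in an intron of Dnahc1, an axonemal dynein chain, at chr14:32127001-32130000, had 451, 368, 248, 155 and 93 H3K4Me1 tags, and 995 and 50 H3K27Ac tags. The window 73.2 kb upstream of the chemokine gene Ccl1 had 409, 302, 203, 138 and 91 H3K4Me1 tags and 364 and 23 H3K27Ac tags. The intronic window of Rapgef5, an exchange factor for Rap proteins, had 356, 292, 153, 113 and 48, and 718 and 196. In all 3 the tags fell at each successive time.

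Windows nearest Prodh (proline dehydrogenase), Cct6b (a chaperonin subunit), Gm12824 (193 kb from its start), Trp53i11, Trhr2 (a receptor for thyrotropin-releasing hormone) and Pabpn1l had between 316 and 382 H3K4Me1 tags at 0 hpi and between 61 and 79 at 48 hpi. Folds of the 10 lost windows ranged from 4.2 to 7.29. With equal background 1 of the 10 remained beyond 4-fold, and folds were 2.88 to 5.00, still lower at 48 hpi.

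Windows were assigned to the nearest protein-coding start within 100 kb. Of 15994 genes with a window, 5312 (33.2%) had a gained window and 1173 (7.33%) a lost window, and 345 had both. The most gained windows, 31 of 48, belonged to Vps13d, a lipid transfer protein, and the tags over all its windows were 1276, 1761, 4316, 6274 and 6275 in the order of time. Arhgap26, a GTPase-activating protein, had 30 of 82 gained. Etv6, an ETS family repressor of blood cells, had 28 of 59 gained and 1757, 2365, 5599, 6336 and 5719 tags. Lpp, a protein of cell adhesions, also had 28, of 63. Nt5e, the surface enzyme CD73 that makes adenosine, had 23 of 33, as many as Rbpj. H3K27Ac was enriched at 48 hpi in 30 of the gained windows at Vps13d, 22 at Etv6, 20 at Nt5e and 15 at Lpp.

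The most lost windows belonged to Dab2ip, a GTPase-activating protein for Ras, with 11 of 58, and its tags over all windows were 6550, 6371, 5807, 5096 and 4860. Gfra1, a receptor for the neurotrophic factor GDNF, had 8 of 20 lost and 2080, 2046, 994, 770 and 663 tags. Tmem132e had 8 of 26, 4933427D06Rik 7 of 18, and Slc25a13, a mitochondrial carrier, 7 of 33.

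Among the gene lists, those of macrophage function had the largest shares of gained windows. In the list of inflammatory cytokines and the chemokine system 85 of 175 windows (48.6%) were gained, against 13.4% of all windows assigned to a gene. A gained window lay at 16 of its 19 genes, against 33.2% of all genes with a window. The median log2 change over its windows was 1.99, against 0.18 over all. Genes of this and of the other macrophage lists hold more windows each than genes do overall. The part of this in their gene counts was not tested. Lost windows made up 0 to 1.78% of the windows of the macrophage lists, against 1.6% of all assigned windows. At a window 24.6 kb upstream of Ccl2, which attracts monocytes, the H3K4Me1 tags were 18, 19, 248, 408 and 332. A window nearest Ccl6 had 11, 31, 199, 279 and 218 H3K4Me1 tags and 4 and 848 H3K27Ac tags. Windows near Ccl3, another chemokine, and in Cx3cr1, the receptor for fractalkine, went from 17 to 234 and from 17 to 225. Il6, Il1b, Il1a, Il1rn and Ccl2 had 13, 11, 7, 8 and 8 gained windows each. Tnf, Cxcl10 and Ccr2 had none.

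Of the windows near pattern recognition receptors, which sense microbial products, 73 of 179 (40.8%) were gained. They lay at 14 of 19 genes, against 33.2% of all genes with a window. A window 41.8 kb upstream of Tlr2, the receptor for bacterial lipopeptides, had 3, 62, 154, 197 and 314 H3K4Me1 tags and 6 and 673 H3K27Ac tags, and Tlr2 had 17 gained windows of 24. The fold at that window rests on 3 tags, with a counting interval of 0.619 to 8.77. A window near Clec4d, a C-type lectin, had 4, 15, 70, 156 and 203 tags, one near Nlrp3, the inflammasome sensor, had 62, 55, 231, 302 and 252, and one near Cd14, the lipopolysaccharide co-receptor, had 36, 95, 231, 226 and 208. Tlr6, Tlr9, Ly96, Cd180 and Nod2 had no gained window.

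Phagocytic receptors and integrins had 57 of 161 windows gained (35.4%), at 14 of 19 genes, against 33.2% of all genes with a window. A window in an exon of Sirpa, the inhibitory receptor for CD47, had 15, 73, 240, 324 and 332 tags, and 16 of its 18 windows were gained. One in an intron of Itgb2, the chain shared by the leukocyte integrins, had 6, 15, 63, 239 and 314. Windows near Cd36, a scavenger receptor, and at the start of Fcgr4, an IgG receptor, went from 21 to 252 and from 20 to 238. Itgam, which encodes the CD11b chain of Mac-1, had 4 gained windows of 17. Fcer1g, Fcgr2b, Tyrobp, Marco and Cd68 had no gained window, and Mrc1 had 1 of 20. Over all their windows, Mrc1 went from 1788 to 1520 tags and Tyrobp from 771 to 672.

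Lysosomal, granule and matrix enzymes had 69 of 185 windows gained (37.3%), at 19 of 24 genes, against 33.2% of all genes with a window. Besides Ctsd, windows near Ctsb, another cathepsin, went through 19, 58, 154, 269 and 312 tags, and near Mmp12, the macrophage elastase, through 7, 53, 257, 232 and 233. A window near Mmp9 went from 43 to 233. Of the macrophage lipid genes 9 of 10 had a gained window, again against 33.2%, and 34 of 95 windows were gained (35.8%). The window at the start of Apoe, the apolipoprotein, had 15, 24, 309, 298 and 219 tags, and one in an intron of Abca1, which exports cholesterol, had 66, 151, 461, 402 and 397, with 26 and 1469 H3K27Ac tags. A window near Plin2, a coat protein of lipid droplets, went from 58 to 287.

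**Figure D5:**
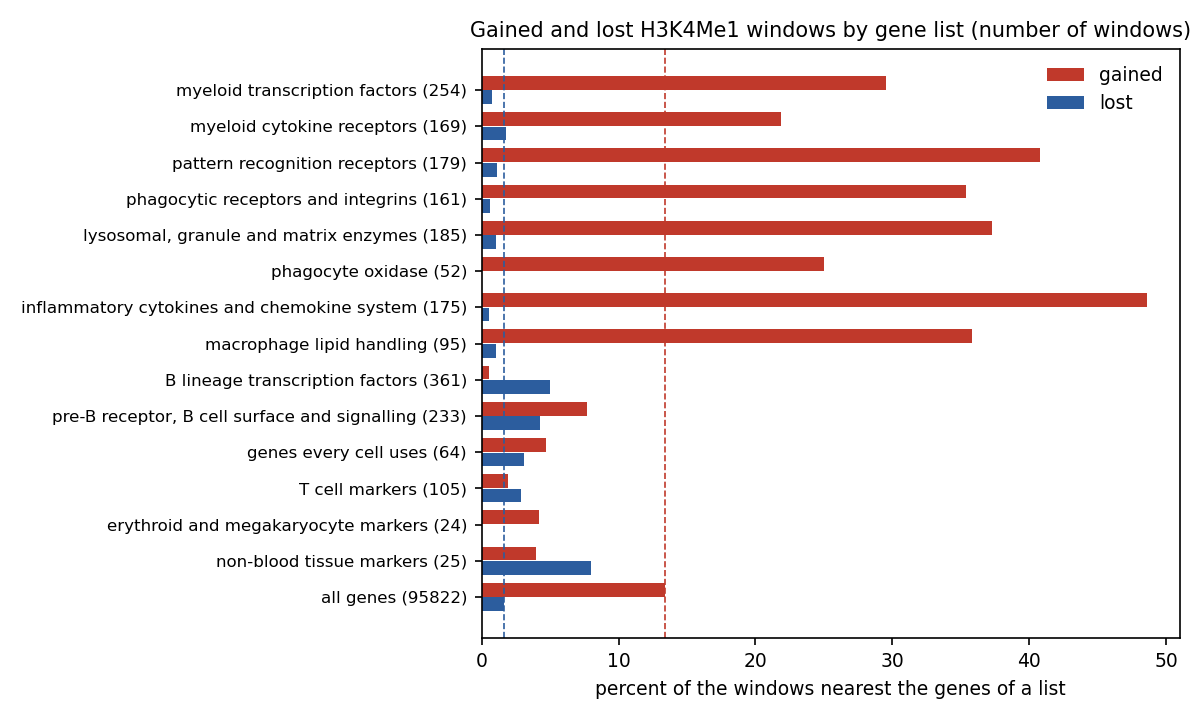
Percent of the windows nearest the genes of each list that were gained or lost in H3K4Me1, with the number of windows after each name and dashed lines at the shares over all genes. The macrophage lists stand between 21.9% and 48.6% gained, to the right of the line at 13.4%, and the list of B lineage transcription factors has 0.554% gained and 4.99% lost, or 1.94% and 1.11% with equal background, where all genes have 21.6% and 0.437%.

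Myeloid transcription factors had 75 of 254 windows gained (29.5%), at 11 of 18 genes, against 33.2% of all genes with a window. These genes, too, hold more windows each than genes do overall. Fosl2 led beside Cebpb, with 29, 50, 161, 233 and 265 tags at its leading window, and 19 of 28 windows at Tcfec, a factor of the Mitf family, were gained. Others of the list did not pass the limit at their leading window. At Sfpi1, which encodes PU.1, the window had 94, 139, 384, 342 and 322 tags. A window 25.6 kb downstream of the start of Irf8, a factor of both macrophages and B cells, went from 434 to 192, with H3K27Ac from 1306 to 131. Cebpa itself had 5 windows, none gained, with 63 tags in all at 0 hpi and 172 at 48 hpi.

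Myeloid cytokine receptors had 37 of 169 windows gained (21.9%), at 11 of 15 genes, against 33.2% of all genes with a window. Another 3 windows (1.78%), at Csf3r, Ifngr1 and Il17ra, were lost, against 1.6% of all assigned windows. Il3ra, Tnfrsf1a, Il10ra and Il17ra had no gained window, and Il10ra went from 3131 to 2535 tags over all its windows. A window in Csf1r, the receptor for CSF-1, had 23, 15, 206, 338 and 282 tags and 6 and 82 H3K27Ac tags. One near Tnfrsf1b, a receptor for TNF, had 14, 11, 52, 167 and 268, and one near Ifngr2, a chain of the interferon-γ receptor, had 50, 96, 230, 246 and 273. At Il17ra the window with the largest difference had 118, 287, 628, 389 and 337 tags, which made it 2.84-fold at 48 hpi though it had been higher at 12 hpi. The phagocyte oxidase, which makes superoxide, had 13 of 52 windows gained (25%), at 4 of 6 genes. Leading windows there were those of Cyba with 30, 118, 419, 311 and 314 tags, Ncf4 with 5, 5, 43, 158 and 188, and Cybb with 10, 25, 108, 115 and 108. Each of these 3 genes encodes a part of the oxidase.

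Of 361 windows near B lineage transcription factors 18 (4.99%) were lost, against 1.6% of all windows assigned to a gene, and 2 were gained. A lost window lay at 11 of 15 genes. Over all genes with a window 7.33% had a lost one, but the 15 genes hold more windows each than genes do overall. With equal background 4 windows at 3 genes were lost (1.11%) and 7 were gained (1.94%), against 0.437% and 21.6% of all assigned windows, so lost windows no longer outnumbered gained ones in the list while its shares still lay above and below those of all genes. Their median signal was 80 tags at 0 hpi and 57 at 48 hpi, where that of all assigned windows was 41 and 54. The median log2 change was −0.62, and −0.07 with equal background, against 0.18 and 0.73 over all assigned windows, a gap that scaling cannot alter. Lists of other lineages had medians near it, −0.57 for T cell markers, −0.59 for erythroid and megakaryocyte markers and −0.42 for markers of tissues other than blood. Bach2 had 5 lost windows of 55 and Ikzf3 4 of 7. Ebf1 and Pax5, which set the B cell programme, had 1 lost window each, of 32 and 30. The windows with the largest differences in the list were not lost by the rule. Near Tcf3, which encodes E2A, the tags were 381, 315, 270, 158 and 124. Near Bach2 they were 326, 323, 172, 127 and 101, with H3K27Ac at 675 and 26. Near Spib they were 269, 244, 210, 130 and 94. A window in Ikzf1, a factor of all lymphoid cells, went the other way, from 105 to 273, with a high of 331 at 12 hpi.

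Of 233 windows near genes of the pre-B receptor, B cell surface and signalling, 10 (4.29%) were lost and 18 (7.73%) gained, and the median log2 change was −0.15, or 0.39 with equal background, so its sign followed the scaling. Over all assigned windows 1.6% were lost and 13.4% gained. With equal background 32 windows of the list were gained (13.7%) and 5 lost (2.15%), against 21.6% and 0.437% of all. A window 7.26 kb upstream of Dntt, the polymerase that adds bases to rearranging antibody genes, had 316, 290, 139, 103 and 64 H3K4Me1 tags and 379 and 32 H3K27Ac tags. Near Il7r, the receptor for interleukin-7, the tags were 311, 343, 148, 104 and 81, with 1128 and 140 of H3K27Ac, a 3.81-fold fall that missed the limit. Near Blnk, an adaptor of the pre-B receptor, they were 389, 454, 285, 201 and 179. Sykb, a kinase used by B cell and by Fc receptors alike, had a gained window with 63, 68, 214, 372 and 384 tags. Cd79b and Il7r had no lost window, and Cd79a, a chain of the B cell receptor, had its single window lost, from 110 to 25 tags.

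The labelled cell type was set against these lists at 0 hpi. Windows near the B lineage lists had medians of 80 and 86 tags, and those near the 8 macrophage lists had medians of 21 to 51. As windows entered by their signal at either time, those that entered by 48 hpi lower the macrophage medians at 0 hpi, and these levels are no check of the cell type on their own. The mark did not separate B lineage genes from all others, since windows near T cell markers had a median of 71 and those near genes that every cell uses had 64. At 48 hpi the B lineage medians were 57 and 81 and the macrophage medians 77 to 98, with libraries of equal total.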

How the data were processed

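ChIP-seq tag positions were used for H3K4Me1 at 0, 3, 12, 24 and 48 hpi and for H3K27Ac and H3K27Me3 at 0 and 48 hpi, 1 library each. Another 6 libraries of the series were not used here. The authors aligned reads to mm9 with Eland or Bowtie without mismatch, removed identical and non-unique tags, and deposited positions of 36-bp tags, without counts. Some files still held repeated positions, which were reduced to 1 tag each.

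Tags were placed at their middle on chromosomes 1 to 19 and X, thinned to the smallest library of the mark (10.91 M for H3K4Me1, 15.22 M for H3K27Ac, 15.34 M for H3K27Me3) and counted in 1000 bp bins, of which 2432149 were mappable. A bin was enriched where the Poisson tail of its count was under 0.001. H3K27Me3 was counted over 5000 bp and enriched at 51 tags or more. Changes are log2 ratios after 1 tag was added. Genes are those with the nearest protein-coding start within 100 kb in GENCODE on the same build. Spi1, Tfec and Syk were matched as Sfpi1, Tcfec and Sykb through RefSeq synonyms, and Cebpd, annotated as a pseudogene, was left out.

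The windows, lists and motifs were chosen with earlier results of these data known. Named are the 10 gained and 10 lost windows with the largest difference in tags, the 5 genes with the most windows of either class, and the leading windows of each gene list; genes named only by their counts of windows were chosen after these were seen. With 1 library a side no test was run. Intervals are exact at 95% and cover counting error only, of tags or of windows taken as independent. Alternatives were other folds, 2 other scalings, a fixed grid, tags as deposited, a stricter tail and the starts of all genes. Scripts were tested on simulated data and used python 3.11.15, numpy 2.4.6, pandas 2.3.3, scipy 1.17.1, numba 0.67.0 and matplotlib 3.10.9. Some members of the gene lists are not reported here by name.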

Additional observations from a re-analysis of the deposited data

Results flagged for a closer look

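Signal outside the main measurement was found in both H3K4Me1 libraries of the comparison. Before positions were reduced to 1 tag each, 13096 positions at 0 hpi and 6760 at 48 hpi held more than 2 tags, while the libraries at 3, 12 and 24 hpi held none. Chromosome Y, which was left out of all windows, held 620 distinct tag positions at 0 hpi and 622 at 48 hpi.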

How the results depend on the processing

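Of 65 alternative values of 9 results, 35 moved. None reversed, but only a median log2 change has a sign that can reverse, and a count or a share has none. Both other scalings raise the later H3K4Me1 counts, so the median over all windows, already positive, could not reverse under them. A count was taken to have moved beyond 1.5 times the reported one, and a share or median outside the 95% interval of the reported one, which is narrow with so many windows. Among the other 30 are values that a setting could not change, such as the median over all windows under another fold limit. Gained and lost windows numbered 29278 and 13217 at 2-fold, 5391 and 153 at 8-fold, and 23426 and 500 with equal background. The median change over all windows was 0.74 with equal background, 0.20 with equal tags in bins enriched at both times, 0.16 on a fixed grid and 0.20 with a stricter Poisson tail. Gained windows were distal in 92.8% at 2-fold, 94.5% at 8-fold and 87.9% with the starts of all genes, and lost windows in 86.9%, 83.0% and 83.9%. Gained windows lay in or beside H3K4Me1 of 0 hpi in 64.5% at 2-fold, 38.6% at 8-fold, 55.3% with equal background, 52.2% on the grid and 42.2% with the stricter tail. The median H3K27Ac change at gained windows was 2.06 at 2-fold, 3.43 at 8-fold, 2.20 with equal background, 3.08 with equal shared bins and 2.64 on the grid. At lost windows it was −1.25 at 2-fold, −1.42 at 8-fold and −1.25 with equal shared bins. H3K27Ac lay in 74.5% of gained windows at 2-fold, 86.1% at 8-fold, 72.4% with equal background, 78.7% on the grid, 78.2% with tags as deposited and 73.7% with the stricter tail. A fold limit changes which windows are counted, and for the other settings the cause was not tested. No paired analysis was possible because a single library stood on either side. No value could be set against replicate spread, and windows near 30 tags rest on few reads.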

Other observations

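Lists of genes from other lineages were described in the same way, beside 13.4% gained and 1.6% lost over all windows assigned to a gene. Windows near T cell markers were gained in 2 of 105 cases (1.90%) and lost in 3 (2.86%), and all 3 lost windows lay at Zap70, a T cell receptor kinase, whose leading window went from 152 to 31 H3K4Me1 tags and from 187 to 22 H3K27Ac tags. Both gained windows lay near Gata3, a T cell factor. With equal background 6 windows of the list were gained and 0 lost, and its median log2 change was −0.03 in place of −0.57, where all assigned windows had 21.6% gained, 0.437% lost and a median of 0.73. Of 24 windows near erythroid and megakaryocyte markers 1 was gained (4.17%) and 0 were lost. The gained window lay at Tal1, a stem cell and erythroid factor, with 13, 32, 116, 142 and 147 tags in the order of time. Windows near markers of tissues other than blood were gained in 1 of 25 cases (4%) and lost in 2 (8%), and those near genes that every cell uses were gained in 3 of 64 (4.69%) and lost in 2 (3.13%). The median change of the last list was −0.06, and 0.48 with equal background, so its sign followed the scaling.

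By chromosome, 10.9% (chromosome 11) to 16.1% (X) of the windows were gained and 1.14% (X) to 2.27% (chromosome 11) were lost. The ratio of background tags at 48 to 0 hpi was also highest on X, at 0.776, and its part in this range was not tested.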
